A study of Drosophila melanogaster with 4 samples.

Results

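The regions described are the mid-size clusters of H3K27me3, the stretches of 5 to 10 kb at which histone H3 was called as enriched for trimethylated lysine 27. They were chosen by width alone: every cluster of at least 5000 bp and under 10000 bp in the combined list, on arms 2L, 2R, 3L, 3R and X and chromosome 4. This gave 259 clusters among the 4966 of the list, of which 4792 lie on those 6 arms. The width in the combined list is therefore what selected them, and widths are given as a description with no test.

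The mark was mapped by chromatin immunoprecipitation and sequencing (ChIP-seq) in whole Drosophila melanogaster larvae of the third instar, wild-type Oregon-R flies with no treatment or transgene named. There were 2 ChIP libraries, made with a mouse monoclonal Abcam antibody, and 2 input libraries, which are not analysed here. The 3 deposited lists of enriched regions hold 1 list for each ChIP replicate and the combined list, all on FlyBase release 5. Whole larvae mix many tissues, so a cluster may be marked in some cell types and not in others. Whether the replicates came from separate larval collections is not stated, so their spread may be technical. With 2 libraries of 1 condition there is no test over samples. How many reads stand behind each list is unknown. The combined list can only come from the same libraries as the replicate lists, so agreement with them is no independent check.

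H3K27me3 is placed by Polycomb repressive complex 2, whose catalytic subunit in flies is Enhancer of zeste. In flies the complex is drawn to Polycomb response elements, DNA elements near developmental genes, and the mark spreads from there over the gene and often over its neighbours. The chromodomain of the Polycomb protein binds the mark, and large marked domains such as those over the Hox gene complexes keep transcription factor genes silent outside the cells that use them. Genes were not placed on the mid-size clusters, because the positions in the reference gene table are those of release 6, and on 5 of the 6 arms that table runs past the length which the list headers give for the arm. No DNA sequence is shown for the same reason.

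The mid-size clusters made up 5.40% of the clusters on the arms, 8.57% of the marked sequence and 1.48% of the arm sequence. They covered 1.78 Mb. The 293 clusters of 10 kb or more, called broad here, held 55.8% of the marked sequence, and the 4240 clusters under 5 kb held 35.6%. Mid-size clusters thus formed the smallest of the 3 width classes by number and by sequence. Their widths ran from 5006 to 9949 bp with a median of 6580 bp and quartiles of 5758 and 7900 bp. Counted in steps of 1 kb from the lower limit, there were 84, 70, 44, 35 and 26 clusters, so numbers fell steadily with width and no step stood out at either limit.

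The class was defined in the combined list, and it was a different class in each library. In replicate 1 the widest cluster overlapping a mid-size cluster was under 5 kb at 187 of the 259 (72.2%), was itself 5 to 10 kb at 19 (7.34%), and was missing at 53 (20.5%). In replicate 2 it was under 5 kb at 126 (48.6%), 5 to 10 kb at 117 (45.2%), 10 kb or more at 13 (5.02%) and missing at 3. Mid-size clusters were mostly narrow clusters in replicate 1 and about evenly narrow or mid-size in replicate 2, and 17 were mid-size in all 3 lists. The median width of the widest overlapping cluster was 2310 bp in replicate 1, over the 206 that had one, and 5075 bp in replicate 2, over 256. No replicate 1 cluster of 10 kb or more overlapped any of them.

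**Figure D1:**
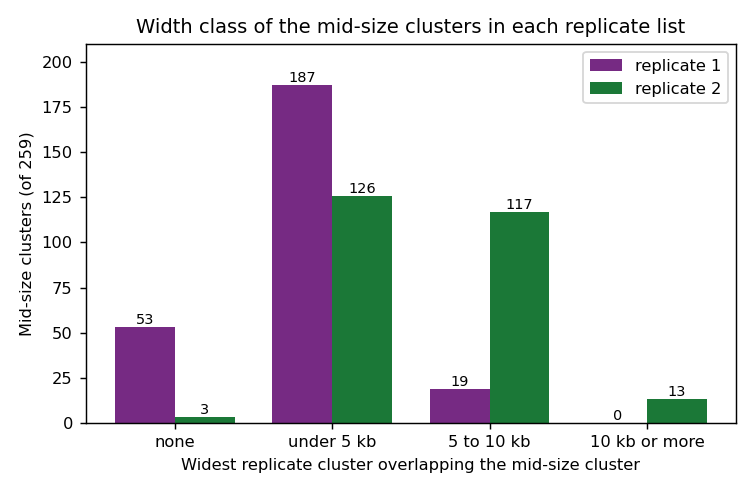
Number of the 259 mid-size clusters (y axis) by the width of the widest overlapping cluster in each replicate list (x axis), replicate 1 in purple and replicate 2 in green. Replicate 1 places 187 under 5 kb and 19 at 5 to 10 kb, and replicate 2 places 126 and 117 there.

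The reverse comparison does not use the combined list to choose the clusters. Replicate 1 had 155 clusters of its own of 5 to 10 kb on the arms, and at 124 of them (80.0%) replicate 2 had a cluster of 10 kb or more. Only 27 were mid-size in both libraries, and 4 met a replicate 2 cluster under 5 kb. Replicate 2 had 173 such clusters, and at 119 of them (68.8%) replicate 1 had a cluster under 5 kb, with 23 at which it had none. The same places were therefore called narrower in replicate 1 than in replicate 2. In the combined list, 136 of the 155 replicate 1 clusters (87.7%) had become broad and 19 were mid-size, while 116 of the 173 replicate 2 clusters (67.1%) were mid-size and 49 (28.3%) broad. Every one of the 155 replicate 1 clusters was covered by replicate 2 over at least 50% of its length, against 84 of the 173 replicate 2 clusters (48.6%) by replicate 1.

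Support from the libraries was measured as the share of each mid-size cluster that a replicate's clusters cover. Of the 1778 kb, replicate 1 covered 707 kb (39.7%) and replicate 2 covered 1413 kb (79.5%), a mean of 59.6% ± 28.1 (SD, n = 2). Both covered the same 35.1%. Replicate 2 thus carried most of the sequence of these clusters, and it covered more than replicate 1 at 237 of the 259 (91.5%). The imbalance was larger than over the arms as a whole. There replicate 1 clusters covered 10.5% of the sequence, replicate 2 clusters 12.5% and combined clusters 17.2%. Adjacent classes also had more cover in replicate 2, with 33.7% and 53.1% at 2 to 5 kb and 61.1% and 91.4% at 10 to 20 kb. The width rule also left out most replicate 1 clusters of 5 to 10 kb, which were broad in the combined list. Differences between these imbalances were not tested. Per cluster, the median cover was 37.6% in replicate 1 (quartiles 20.4% and 59.6%, highest 96.8%) and 86.3% in replicate 2 (quartiles 67.6% and 96.8%).

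A mid-size cluster was counted as found in a library when at least 50% of it was covered. Replicate 1 found 84 (32.4%; 95% Wilson interval 27 to 38.4%), where 25.8% of all combined clusters on the arms were found by it. Replicate 2 found 228 (88.0%; 83.5 to 91.4%), against 30.7% of all arm clusters. Both found 76 (29.3%; 24.1 to 35.2%), against 11.0%. In replicate 1 the share was thus a little above that of all arm clusters, of which 88.5% were under 5 kb. In replicate 2 it was well above it. Clusters of 2 to 5 kb were found at 39.5% in replicate 1 and 60.3% in replicate 2. Clusters of 10 to 20 kb were found at 60.7% and 99.1%. The mid-size share thus lay below both of these classes in replicate 1 and between them in replicate 2. The Wilson intervals reflect counting error alone, as if clusters were independent. A further 152 (58.7%) were found in replicate 2 and missed in replicate 1, against 19.7% of all arm clusters. The other way round there were 8 (3.09%), against 14.8%. The remaining 23 (8.88%) were found in neither, against 54.5% of all arm clusters. The threshold matters in both libraries. A single shared base pair was enough at 206 of the 259 clusters in replicate 1 (32.4% of all arm clusters). In replicate 2 it was enough at 256 (33.1%). Cover of at least 90% was reached by 9 in replicate 1 (10.7%) and 107 in replicate 2 (15.9%).

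**Figure D2:**
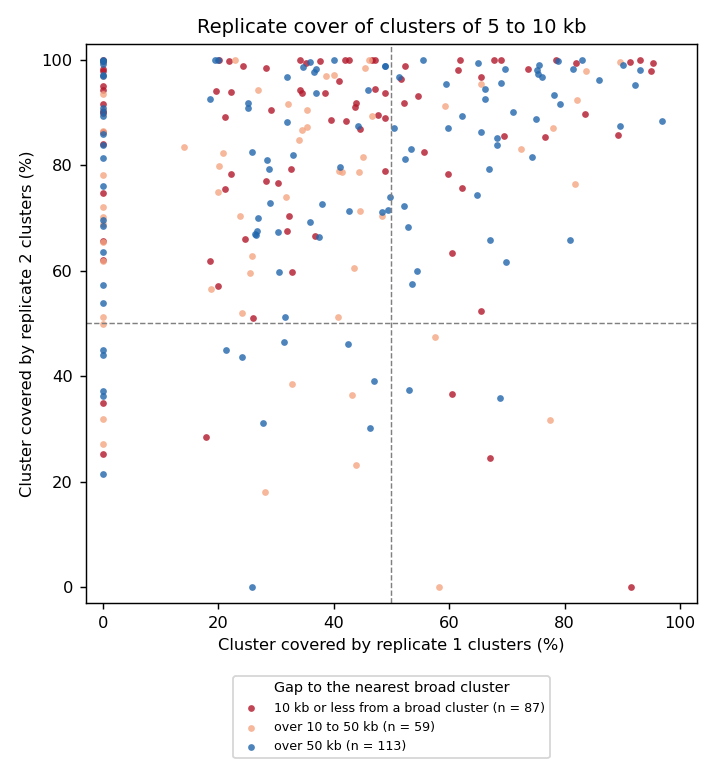
Share of each mid-size cluster covered by replicate 1 clusters (x axis, %) and by replicate 2 clusters (y axis, %), coloured by the gap to the nearest broad cluster, with dashed lines at the 50% limit. Most points lie above the horizontal line, and 53 stand at 0 in replicate 1 against 3 at 0 in replicate 2.

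The 7 clusters covered to at least 90% in both libraries are the best supported ones. On 2L the cluster from 5024 to 14325 was covered to 90.1% and 99.0% in replicates 1 and 2. On 2R the cluster from 10362964 to 10368723 was covered to 95.3% and 99.5%. The one on 2R from 20224682 to 20231063 was covered to 93.1% and 99.9%. The extents of these clusters nearly coincide in the 3 lists. On 3L, 21598029 to 21606350 was covered to 95% and 97.8%, and on 3R, 8122143 to 8128442 was covered to 91.4% and 99.6%. The last pair lies on 3R: 16898876 to 16907806 was covered to 93.1% and 98.0%, and 25851157 to 25858092 to 92.1% and 95.2%. They stand far from other marks, with 37.5 and 93.8 kb to the nearest cluster of any width.

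At the other end, 53 mid-size clusters had no replicate 1 cluster at all. Replicate 2 covered them to between 21.4% and 100%, with a median of 81.5%, and found 43 of them. Their scores were lower than those of the class, at a median percentile of 64.5 against 82.7 in the combined list. The highest-scoring of the 53 lies on 2R from 2243985 to 2250172, where replicate 2 covered 99.7% with a cluster of 8.31 kb. A second cluster nearby, 2212913 to 2218354, was covered to 100% by replicate 2 and to 0% by replicate 1, while the one between them, 2224732 to 2231993, was covered to 68.2% and 83.8%. Neighbouring clusters of 1 short stretch therefore differed in replicate 1 support. Replicate 2 lacked 3 clusters: X from 3906734 to 3912960, covered to 91.4% by 3 clusters of replicate 1; 2R from 11515935 to 11521299, covered to 58.3%; and X from 7254161 to 7259414, covered to 25.9%. The 23 found in neither library included 13 isolated clusters and had a median score percentile of 61.2.

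Most of the uncovered sequence lay outside the outermost replicate clusters. A mid-size cluster with a single replicate cluster can lose cover only there, so part of this is built in. In the 206 clusters with a replicate 1 cluster, 674 kb was uncovered outside the outermost replicate 1 clusters and 65.7 kb (8.88% of the uncovered sequence) lay in gaps between them. In replicate 2 the outer loss was 289 kb and the inner loss 59.2 kb (17.0%). Replicate 1 clusters began a median of 1185 bp inside the edge of the combined cluster, over 412 edges, and 125 edges (30.3%) lay within 500 bp of it. Replicate 2 clusters began a median of 160 bp inside, over 512 edges, with 324 (63.3%) within 500 bp and 151 (29.5%) beyond the edge. The combined clusters therefore ended close to where replicate 2 ended, and about 1 kb outside replicate 1.

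Averaged over all 259 clusters scaled to 1 width and turned so that the nearest broad cluster lies to the right, replicate 1 covered 47.9% of the central 20% of the width, 27.4% of the outer 20% facing away from the broad cluster and 25.7% of the outer 20% facing it. Replicate 2 covered 86.5%, 65.5% and 71.5%. In both libraries cover was higher inside than in the outer parts. In the 5 kb flanks, the combined list covered 47.4% on the far side and 53.8% on the near side. Both were above the 17.2% of the arms that combined clusters cover, so the flanks were themselves marked. Turning the clusters toward the nearest broad one builds in part of the higher near side. In isolated clusters the order was reversed, with 45.3% on the far side and 39.3% on the near side.

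**Figure D3:**
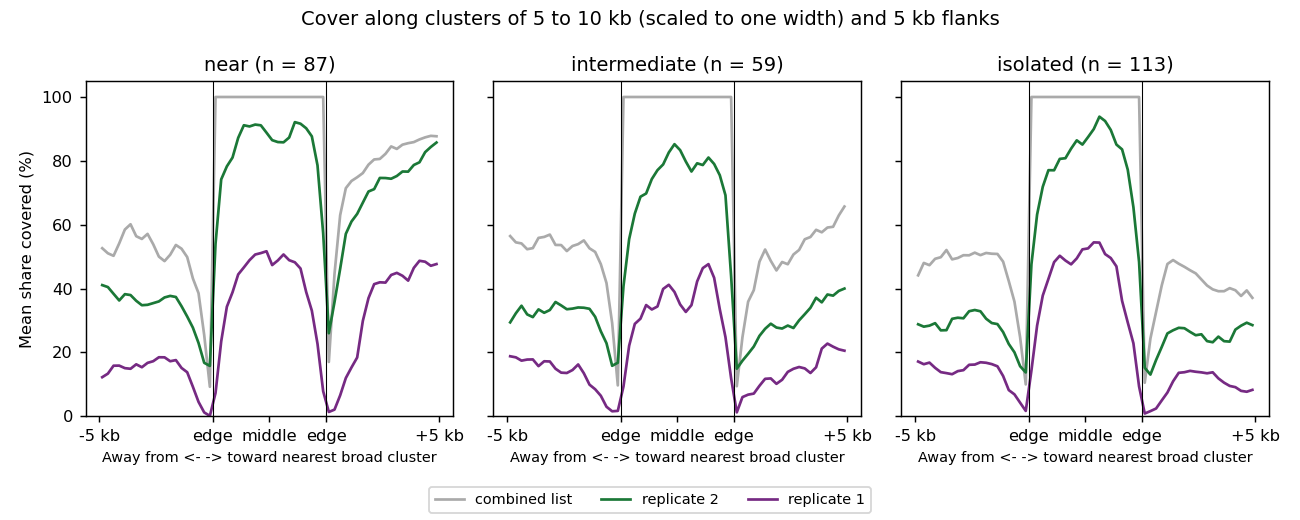
Mean share covered (y axis, %) along the mid-size clusters, scaled to 1 width, and 5 kb on each side (x axis), with the nearest broad cluster to the right, in panels of 87 near, 59 intermediate and 113 isolated clusters. Grey is the combined list, green replicate 2 and purple replicate 1. Both replicates are highest inside and drop at both edges. Cover to the right of near clusters rises again, where a broad cluster lies within 10 kb by definition.

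Nearness to the broad clusters was measured as the gap from the edge of a mid-size cluster to the edge of the nearest cluster of 10 kb or more. The gap ran from 3 bp to 1415 kb, with a median of 34.2 kb and quartiles of 5.82 and 170 kb. A gap of 10 kb or less, called near, was found at 87 clusters (33.6%; 28.1 to 39.5%), against 12.1% of all arm clusters. A gap over 50 kb, called isolated, was found at 113 (43.6%), against 70.1% of all arm clusters. The other 59 (22.8%) were intermediate. Clusters of 10 to 20 kb, measured to the nearest other broad cluster, had nearly the same distribution, with 33.3% near, 47.0% isolated and a median gap of 46.9 kb (n = 117). Clusters of 2 to 5 kb lay farther away, with 17.1% near, 61.2% isolated and a median of 97.3 kb (n = 982). Values of the 3 classes share 1 list and were not tested against each other.

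**Figure D4:**
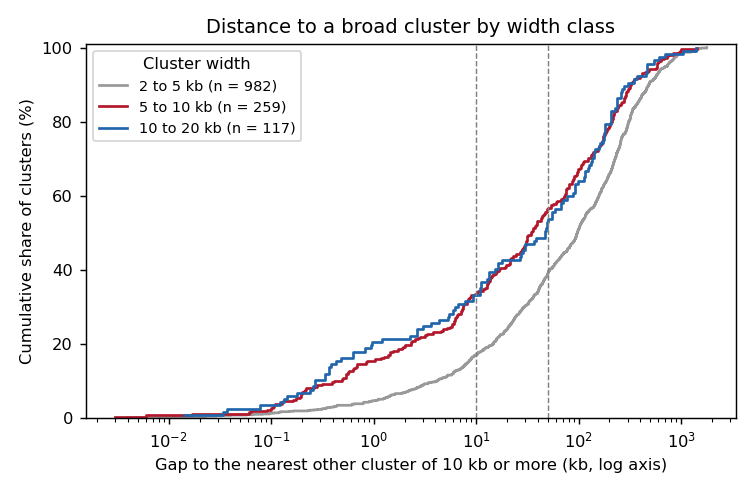
Cumulative share of clusters (y axis, %) by the gap to the nearest other broad cluster (x axis, kb, log axis), for clusters of 2 to 5, 5 to 10 and 10 to 20 kb, with dashed lines at 10 and 50 kb. The mid-size curve runs beside that of clusters of 10 to 20 kb, with 33.6% and 33.3% at 10 kb or less, and above that of clusters of 2 to 5 kb, with 17.1%.

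Isolation from broad clusters was not isolation from the mark. The nearest cluster of any width lay a median of 366 bp away. A cluster of any width lay within 1 kb of 197 mid-size clusters (76.1%, against 38.1% of all arm clusters) and within 5 kb of 244 (94.2%, against 69.5%). Of the 113 isolated clusters, 102 (90.3%) had some other cluster within 5 kb, against 62.2% of all arm clusters that were isolated in the same sense. A cluster under 5 kb wide lay within 5 kb of 206 mid-size clusters. No share over all arm clusters is given for this count, and 88.5% of arm clusters were under 5 kb. Another mid-size cluster lay within 5 kb of 81 (31.3%, against 10.7% of all arm clusters). The neighbours of mid-size clusters were thus of several widths.

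When clusters less than 5 kb apart are linked into chains, 109 mid-size clusters (42.1%) belonged to a chain that held a broad cluster, against 16.6% of all arm clusters in a chain with another cluster that is broad. Another 135 (52.1%, against 52.9%) belonged to a chain with other clusters and no broad one, and 15 (5.79%, against 30.5%) stood alone. The share in chains without a broad cluster was thus close to that of the whole list. The 113 chains without a broad cluster, which include the lone clusters, held a median of 4 clusters over 19.1 kb, and 88 of them (77.9%) spanned 10 kb or more. With their interruptions included, these chains thus mostly reached the width of a broad cluster. Each chain was picked for holding a cluster of at least 5 kb, and linking adds neighbours and gaps. Part of this span is therefore built in.

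Chains with many mid-size clusters show the arrangement. On 2R a chain from 7580664 to 7712104 held 17 clusters over 131 kb, with 8 mid-size and 2 broad ones. On 3R a chain of 81.2 kb from 17959456 to 18040612 held 14 clusters, 6 of them mid-size and none broad, covered to between 34.6% and 62.3% by replicate 1 and between 72.7% and 98.7% by replicate 2. In that chain the clusters from 17995727 to 18001921 and from 18001951 to 18009817 are 29 bp apart. A single replicate 2 cluster of 12.87 kb covered 89.4% of the latter. On 3L a chain of 154 kb from 13070022 to 13223673 held 33 clusters, 5 of them mid-size and none broad. There replicate 1 covered 0 to 44.2% of the mid-size clusters and replicate 2 covered 51.2 to 97.1%. In neither of the chains without a broad cluster did replicate 2 cover any mid-size cluster in full.

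The 15 clusters that stood alone in their chain were covered to 62.1% by replicate 1 and 91.8% by replicate 2, and 10 of them were found in both. The 7 with no other cluster within 10 kb were covered to 73.2% and 92.8%, and 6 were found in both. The lowest replicate 1 cover among these 7 was 35.9% and the highest 93.1%. These lone clusters had higher cover in replicate 1 than the 39.7% of the whole class; the difference was not tested.

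Support showed no steady fall with distance from the broad clusters. In near clusters replicate 1 covered 40.0% of the sequence and replicate 2 covered 83.7%. In intermediate clusters the shares were 33.1% and 73.5%, and in isolated clusters 43.2% and 79.5%. The intermediate clusters had the lowest cover in both libraries. Both libraries found 25 of 87 near clusters, 8 of 59 intermediate ones and 43 of 113 isolated ones. In replicate 1 alone the found shares were 32.2% (23.3 to 42.6%), 18.6% (10.7 to 30.4%) and 39.8% (31.3 to 49.0%), intervals that overlap between near clusters and each of the other classes, and that do not overlap between intermediate and isolated ones. Neighbouring clusters are not independent, and the difference was not tested. Across the 259 clusters the rank correlation of the gap with cover was 0.06 in replicate 1 and -0.11 in replicate 2, a description over clusters that share the same libraries.

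The 87 near clusters adjoined 71 of the 293 broad clusters, and 14 of those broad clusters had more than 1 near mid-size cluster. The broad neighbours had a median width of 16.9 kb, from 10.0 to 163 kb. Only 10 mid-size clusters had a broad cluster within 10 kb on both sides. Near clusters thus mostly had a broad cluster on 1 side only, and most of those broad clusters had a single near mid-size cluster.

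Whether 1 cluster of a library joined a near cluster to its broad neighbour was read in each list. In replicate 1 no cluster joined both, and 72 of the 87 gaps were empty of replicate 1 clusters. In replicate 2 a single cluster joined 8 (9.20%; 4.73 to 17.1%), and 26 gaps were empty. All 8 were among the 40 gaps of 1 kb or less, with 0 of 22 between 1 and 5 kb and 0 of 25 between 5 and 10 kb. Replicate 1 covered 11.5% of the 243 kb in these gaps and replicate 2 covered 39.8%. A mid-size cluster with no cluster of a library cannot be joined in it: 71 of the 87 had a replicate 1 cluster, of which 0 were joined, and 86 had a replicate 2 cluster. Among the gaps of 1 kb or less, 33 of 40 had a replicate 1 cluster and none was joined, against 8 of 40 in replicate 2. Replicate 1 covered only 1.36% of the first 250 bp beside near clusters, on the side facing the broad one. Short gaps were thus almost sure to be empty in its list. Unjoined gaps in replicate 1 therefore do not show that the marks were separate.

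The narrowest gaps give both outcomes. On 2R the cluster from 2399860 to 2405101 was 3 bp from its broad neighbour, and a replicate 2 cluster of 17.3 kb covered it to 100% with the neighbour, while replicate 1 covered 0%. On 2R the cluster from 7608359 to 7613597, at 6 bp, was covered to 97.8% by a replicate 2 cluster of 28.4 kb and again to 0% by replicate 1. On 3L the cluster from 20535167 to 20541388, 17 bp from a broad cluster of 163 kb, was covered to 69.0% by replicate 1 and to 100% by a replicate 2 cluster that joined both. In all of these the interruption of a few base pairs in the combined list was absent from replicate 2. On 3R the cluster from 8122143 to 8128442, at 63 bp, was separate in both libraries, as a replicate 1 cluster of 5.76 kb and a replicate 2 cluster of 6.36 kb.

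Most of the clusters farthest from any broad one were found in replicate 2. On 3R the cluster from 15621494 to 15627375, 1415 kb from a broad cluster, was covered to 52.4% by replicate 1 and 81.2% by replicate 2. On 2R, 12710536 to 12716339 was 975 kb away and covered to 55.5% and 100%, and 12687715 to 12693669 was 952 kb away and covered to 48.3% and 71.0%. On 3L, 4976393 to 4984993 was 824 kb away and covered to 0% and 63.6%. Of the 10 farthest clusters, 5 were found in both libraries and 8 in replicate 2, beside 29.3% and 88.0% of the whole class. On 3R the cluster from 27892500 to 27900548, 992 kb away, lies close to the end of the arm sequence of 27.9051 Mb. A broad cluster could thus hardly lie on its outer side. This cluster was also among the 10 with the highest scores, and was covered to 71.0% and 90.2%.

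The deposited score has no stated unit, so it is read as a rank inside the combined list. Mid-size clusters had scores from 0.362 to 2.92 and a median percentile of 82.7 (quartiles 70.5 and 89.9). At least the list median was reached by 235 (90.7%, against 50.0% of the list), and 63 (24.3%) were in the top 10% of the list. The median percentile was 95.2 in broad clusters and 43.3 in those under 5 kb, so the mid-size class lay between. Within the class the score had a rank correlation of 0.30 with width and -0.02 with the gap to a broad cluster (n = 259). The median percentile was 84.3 in near, 81.8 in intermediate and 83.9 in isolated clusters. The score thus showed almost no rank relation to the distance from a broad cluster.

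Score and replicate cover moved together, and both come from the same libraries. The rank correlation of score with cover was 0.57 in replicate 1 and 0.60 in replicate 2, higher than the 0.22 between the covers of the libraries themselves. The class was split by score into 4 groups of 64 or 65 clusters. In the lowest group (0.362 to 0.498), replicate 1 covered 19.6% and replicate 2 covered 61.0%, and both found 4 of 65 clusters. In the highest group (0.690 to 2.92) they covered 61.9% and 94.7%, and both found 44 of 65. Support by both libraries was thus concentrated in the highest group, which also held 18 of the 19 clusters that were 5 kb or wider in replicate 1. Clusters at 0 in replicate 1 numbered 31, 11, 7 and 4 from the lowest to the highest group.

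**Figure D5:**
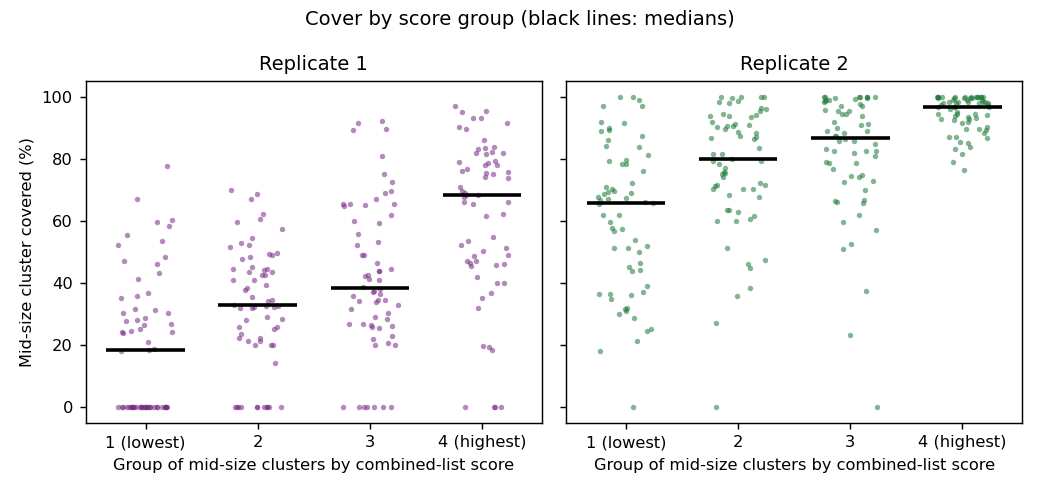
Share of each mid-size cluster covered (y axis, %) in replicate 1 and replicate 2, in 4 groups from the lowest to the highest combined-list score (x axis), with black lines at the medians. The replicate 1 medians are 18.6, 32.8, 38.3 and 68.2%, and the replicate 2 medians 65.7, 79.9, 86.7 and 96.8%.

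The highest score of the class, 2.92, was that of the 2L cluster from 5024 to 14325, which lies at the very start of the arm sequence and was 351 kb from a broad cluster. Also among the 10 highest-scoring were the 2R clusters from 20224682 to 20231063 and from 10362964 to 10368723 named above, 128 bp and 7.12 kb from broad clusters. On X, 2031831 to 2040455 was covered to 96.8% by replicate 1 and 88.4% by replicate 2 and was isolated by 278 kb. It was among the 22 clusters that replicate 1 covered more fully than replicate 2. On 3R, 26906697 to 26913690 was covered to 81.9% and 99.5%, and 14055849 to 14065385 to 81.5% and 98.3%. On X, 5205307 to 5211563 was covered to 89.5% and 99.5%. Of the 10 highest-scoring clusters 9 were found in both libraries, 6 were isolated and 3 were near. The lowest score percentile, 13.7, belonged to 3R from 5940554 to 5945661, covered to 0% and 36.3%.

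Cover was also higher in the wider steps of the class, though not at each step. From the narrowest to the widest 1 kb step, replicate 1 covered 33.5, 40.5, 35.2, 48 and 46.2% of the sequence and replicate 2 covered 75.7, 78.2, 78.2, 81.3 and 88.3%. Of the 84 clusters in the narrowest step 26 were at 0 in replicate 1, against 1 of the 26 in the widest. Outside the limits, clusters of 4 to 5 kb (n = 130) were covered to 36.1% and 65.9%, and clusters in the first 1 kb step over the upper limit (n = 19) to 49.3% and 87.6%. Replicate 2 cover thus kept falling below the lower limit and stayed level above the upper one, while replicate 1 cover changed little at either. The 5 widest clusters under the lower limit, of 4954 to 4988 bp, were covered to 27.7 to 58.8% by replicate 1 and 40.8 to 100% by replicate 2, and the 5 narrowest members, of 5006 to 5043 bp, to 30.3 to 78.1% and 57.5 to 94.5%. At the upper limit, the 5 widest members, of 9622 to 9949 bp, were covered to 33.9 to 75.6% and 52.4 to 100%, and the 5 clusters just over it, of 10015 to 10079 bp, to 14.2 to 88.9% and 67.2 to 99.9%. The ranges of these few clusters overlap at both limits.

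By chromosome arm, 2R had the most mid-size clusters, 65 or 3.07 per Mb, against 2.15 per Mb over all arms. There were 62 on 3R (2.22 per Mb), 51 on 3L (2.08), 40 on X (1.78) and 38 on 2L (1.65). Broad clusters were spread evenly over the large arms, at 2.20 to 2.52 per Mb, so 2R held 1.23 mid-size clusters per broad one and 2L held 0.655. The replicate lists gave other orders: 19 clusters of 5 to 10 kb on 2R in replicate 1, where 3R had the most with 44, and 42 on 2R in replicate 2, the most of any arm there. The place of 2R as the richest arm was thus not shared by replicate 1, and differences between arms were not tested.

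Isolated clusters numbered 21 of 38 on 2L, 25 of 65 on 2R, 26 of 51 on 3L, 29 of 62 on 3R and 12 of 40 on X. Cover in replicate 1 ran from 35.4% on 2L to 44.2% on 3R among the large arms, and in replicate 2 from 74.0% on X to 83.3% on 3R. Replicate 2 covered more than replicate 1 on every arm. Within arms the clusters were unevenly placed: of 124 bins of 1 Mb, 33 held none and 15 held 5 or more. The densest were on 2R, with 10 clusters between 19 and 20 Mb, 9 between 7 and 8 Mb and 8 between 2 and 3 Mb.

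Chromosome 4, which is small and largely heterochromatic, held 3 mid-size clusters beside a broad-cluster density of 5.92 per Mb. The cluster from 437222 to 445286 was covered to 22.8% by replicate 1 and 100% by replicate 2. The cluster from 818812 to 824989 was covered to 47.2% and 100%, and the one from 993271 to 999026 to 37.6% and 99.8%. All 3 were found in replicate 2 and missed in replicate 1, and none was isolated.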

How the data were processed

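Clusters are the regions that the authors deposited as enriched, with positions on FlyBase release 5 per the file headers. Column 6 of each deposited list is a score, the authors' own value per cluster, with no stated unit, and it served only to rank clusters inside a list. Bowtie 0.12.7 is named in the submitters' processing notes. Which caller and threshold were used, whether input was subtracted, and how the combined list was made are all not given in the sources used here. Lists may therefore differ in width and number through depth or threshold, and this was not tested.

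From the lists, widths, gaps and covered base pairs were computed in Python 3.11.15 (pandas 2.3.3, numpy 2.4.6, scipy 1.17.1, matplotlib 3.10.9 for plots). The interval arithmetic was tested on simulated data against a base-by-base count and disagreed in 0 of 200 simulations. Shares carry 95% Wilson intervals. Replicate numbers are those of the sample titles. Neither the width classes nor the clusters were tested, as they share the same 2 libraries. Clusters named were drawn from planned sets, and not every cluster of each set is named. The sets were the 10 with the highest score and the 10 farthest from and the 10 closest to a broad cluster. Further sets were up to 10 at 0% in 1 library by score, 5 at each side of each width limit, and all of chromosome 4. Those covered to 90% in both libraries, the runs, the clusters at 0% in replicate 2, the neighbours on 2R and the lowest score were named after their values were seen. Profiles, chains and edge distances were likewise added later. The members and lists were chosen with earlier results of these data known. A planned reading of developmental genes was not made, for want of an annotation of the same build.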

Additional observations from a re-analysis of the deposited data

How the results depend on the processing

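Of 67 values under alternative settings, 32 stayed within the counting interval, replicate spread or 1.5-fold limit of the reported value and 35 moved. With 1 shared base pair, replicate 1 found 79.5%, replicate 2 98.8%, both 78.4% and either 100%; near and isolated clusters were found at 81.6% and 79.6% in replicate 1 and 98.9% and 99.1% in replicate 2. With 90% cover, the shares were 3.47, 41.3, 2.70 and 42.1%, and near and isolated clusters gave 5.75% and 3.54% in replicate 1 and 52.9% and 39.8% in replicate 2. Keeping clusters at or above the median score of the class raised the shares to 50%, 97.7%, 48.5% and 99.2%. It also moved the arms' shares of the class, to 13.8% on 3L and 23.8% on X. Limits of 4000 to 8000 bp gave 80.5% in replicate 2, 24.1% in both and 86.0% in either, and limits of 6000 to 12000 bp gave 35.2% in both. Merging clusters less than 1 kb apart before the choice gave 257 mid-size clusters, of which 62 were among the 259 unaltered, found at 21.4% in replicate 1, 52.5% in replicate 2, 15.2% in both and 58.8% in either. The merged clusters were covered to 28.6% of their base pairs by replicate 1 and 53.7% by replicate 2, beside 39.7% and 79.5% as reported. The limits for base-pair cover were wide enough that both of these falls counted as unmoved. The cause of the falls after merging was not tested. The share found in either replicate was 91.1%, and with 1 replicate left out it was 32.4% to 88.0%, the lower value without replicate 2. The near share was 23.9% at 5 kb, 41.3% at 20 kb and 16.2% when broad meant 20 kb or more, with a median gap of 158 kb. Replicate 2 found a larger share than replicate 1 at 1 bp, at 90%, in the higher-scoring clusters, under both other width limits and after merging at 1 kb.

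No paired analysis was possible because the results come from overlaps of lists of 1 condition, with no groups to compare and no test. The unknown depth limits every statement on clusters missing from replicate 1: absence from a list is not absence of the mark.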
